A study of Mus musculus with 64 samples.

Results

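The genes described here carry dopamine signalling and the making and breakdown of monoamines: the 5 dopamine receptors Drd1, Drd2, Drd3, Drd4 and Drd5, the synthesis enzymes Th (tyrosine hydroxylase) and Ddc (dopa decarboxylase), and the monoamine oxidases Maoa and Maob. They were chosen by symbol, which was matched to the Ensembl identifiers of the count table, and make up 9 of its 32227 gene rows. RNA sequencing of bulk hippocampus gave 64 libraries, 4 from females and 4 from males of each of 8 inbred mouse strains. Of these strains, C57BL/6J, 129S1/SvImJ, NOD/ShiLtJ, A/J and NZO/HlLtJ are classical laboratory strains, while CAST/EiJ, PWK/PhJ and WSB/EiJ are wild-derived. A slash is used in strain names where the labels have another character. The labels used here name no treatment and no age, and do not say that each library came from a separate animal, so p-values measure the spread between these libraries, which may be technical in part.

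In the textbook pathway, tyrosine hydroxylase turns tyrosine into L-DOPA, the rate-limiting step, and dopa decarboxylase turns L-DOPA into dopamine and 5-hydroxytryptophan into serotonin. D1-like receptors (Drd1, Drd5) couple to stimulatory G proteins and raise cyclic AMP, and D2-like receptors (Drd2, Drd3, Drd4) couple to inhibitory ones. The oxidases sit on the outer mitochondrial membrane, where Maoa prefers serotonin and noradrenaline and Maob prefers phenylethylamine. Dopamine and noradrenaline reach the hippocampus mainly through axons of cells in the midbrain and the locus coeruleus, so the somata that make most Th transcript lie outside the tissue.

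The promoter windows of Th and Drd5 are shown because these genes had the widest spread between strains, and that of Drd1 because it is the other D1-like receptor. Each holds the 250 bases before the start of the RefSeq gene in GRCm38.p6, read 5′ to 3′ on the gene's strand, and capitals mark motif matches on either strand. The windows lie at chr7:142899996-142900245 (minus strand) for Th, chr5:38319259-38319508 (plus strand) for Drd5 and chr13:54055659-54055908 (minus strand) for Drd1.
Th: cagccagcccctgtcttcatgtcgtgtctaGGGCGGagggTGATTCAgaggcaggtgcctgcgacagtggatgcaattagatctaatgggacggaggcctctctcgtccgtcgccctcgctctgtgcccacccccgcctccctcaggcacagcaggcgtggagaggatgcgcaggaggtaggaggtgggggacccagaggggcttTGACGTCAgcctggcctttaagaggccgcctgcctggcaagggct
Drd5: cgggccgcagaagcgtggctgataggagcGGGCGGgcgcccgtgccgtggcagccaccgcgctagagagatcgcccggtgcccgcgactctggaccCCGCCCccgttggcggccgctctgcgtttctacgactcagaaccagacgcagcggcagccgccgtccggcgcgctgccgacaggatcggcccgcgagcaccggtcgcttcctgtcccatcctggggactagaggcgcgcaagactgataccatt
Drd1: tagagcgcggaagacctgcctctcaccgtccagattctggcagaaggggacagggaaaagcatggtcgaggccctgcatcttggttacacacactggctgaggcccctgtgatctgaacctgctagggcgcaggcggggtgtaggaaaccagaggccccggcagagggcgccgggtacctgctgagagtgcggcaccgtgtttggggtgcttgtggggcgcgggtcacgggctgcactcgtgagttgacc
The Th window held the cAMP response element TGACGTCA, whose first base lay 45 bases before the start and which 1.55% of 32851 such windows held. It also held the AP-1 motif TGANTCA, 210 bases before the start (6.75% of windows), and a GC box, GGGCGG, at 220 bases (32.7%). No match overlapped another. Drd5 had GC boxes at 221 and 154 bases, and Drd1 had no match to these motifs or to the TATA box TATAAA (12.4% of windows) in the window shown. A second Drd1 entry in the table, with a start inside the gene, held a GC box at 133 bases. GC content was 64.4% for Th, 71.2% for Drd5 and 64% for Drd1, against a median of 52.4%. These letters are the reference sequence, and no sequence of the other strains was used. A match describes a sequence and is not a bound site. Windows were found for 8 of the 9 genes, and for Maob none was found.

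The libraries held 16607602 to 27759221 counts each (median 22176356.5). Levels are given as CPM, counts relative to library size after trimmed-mean normalization. Markers of the named tissue were present in every library: summed CA1 pyramidal markers ran from 587 to 1230 CPM and dentate granule markers from 262 to 497 CPM. Choroid plexus markers ranged widely, from 125 to 6790 CPM. Among defining markers of monoamine neurons, Pitx3 and En1 of the midbrain, Phox2a of noradrenergic cells and Fev of serotonergic cells had at most 3 counts in every library. Other genes of these lists were expressed: Slc18a2, Aldh1a1, Nr4a2 and Ntsr1 of the midbrain list, Dbh and Tph2 passed the filter on low counts, and the 8 midbrain markers summed to 66.6 to 147 CPM. The female 1 library of 129S1/SvImJ and the male 2 library of A/J stood apart, with median correlations to their groups of 0.981 and 0.978. Without that pair the ranges of strain means (log2) were 0.93 for Drd1, 1.07 for Drd2, 1.87 for Drd5, 3.58 for Th, 0.37 for Maoa, 0.86 for Maob and 0.89 for Ddc, and all 7 still passed the test described next.

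The 9 genes spanned a wide range of levels. Per kilobase of exon, the median level over all libraries was 8.12 CPM per kb for Maoa, 6.73 for Maob, 3.47 for Drd5, 1.41 for Drd1, 1.4 for Drd2 and 1.16 for Ddc. On the same scale it was 0.182 for Th, 0.0365 for Drd4 and 0.0255 for Drd3. Drd5 was thus the most abundant dopamine receptor per length, and both oxidases lay above every receptor. Of the 9, 7 passed the filter on low counts, and Drd3 and Drd4 did not.

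All 7 filtered genes differed between strains by the F test over the 8 strain means (edgeR's quasi-likelihood test, Benjamini-Hochberg adjustment over 17382 genes). The same was true of 89.2% of all genes tested, so nothing particular to these genes is read from the count of 7. The strain means spanned 1 or more (log2) for 2 of the 7, Th and Drd5, against 27.6% of all genes. The ranges were 3.58 for Th (12-fold, adjusted p = 5.8e-22) and 1.87 for Drd5 (3.66-fold, adjusted p = 4.96e-34). Drd2 had 0.99, Ddc 0.89, Drd1 0.88, Maob 0.86 and Maoa 0.37, against a median of 0.55 over all genes. In the order of all ranges, Th stood at percentile 94.9, Drd5 at 86.4 and Maoa at 33.1. Drd2 lay just under the minimum and passed it in 10 of the 64 fits that each left out a single library.

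Th, the rate-limiting enzyme of catecholamine synthesis, was highest in PWK/PhJ. Its 8 PWK/PhJ libraries had 4.51, 3.94, 3.99 and 2.86 CPM in females and 3.51, 2.98, 2.71 and 4.45 CPM in males, from 53 to 86 counts. Every one lay above all 56 libraries of the other strains, which ran from 0.134 to 2.2 CPM. The PWK/PhJ mean was 3.62 ± 0.712 CPM (SD, n = 8), while the other strain means ran from 0.294 ± 0.13 CPM in WSB/EiJ to 0.681 ± 0.217 CPM in C57BL/6J (SD, n = 8 each). Against the mean of the other strains, Th was higher in PWK/PhJ by 3.09 ± 0.156 (log2, SE; 8.52-fold; adjusted p = 8.16e-25). In this comparison, 9.35% of all genes were called with a change of at least 1 on the log2 scale.

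The next highest Th value, 2.2 CPM, belonged to the female 3 library of A/J, whose group otherwise had 0.261 to 0.486 CPM. That library also had the highest levels of the hypothalamic peptide transcripts Avp (24.9 CPM, against at most 5.77 elsewhere) and Oxt (29.8 CPM, against at most 2.7). Its summed hypothalamic markers reached 59.3 CPM, most of it Avp and Oxt, while Hcrt of the same list was at 0 CPM. In PWK/PhJ this sum had a median of 2.5 CPM and a highest value of 13.5 CPM, against medians of 1.81 to 3.03 CPM in the other strains. The PWK/PhJ library with the most Th had 2.08 CPM. Of the list's 5 tested genes, Nkx2-1 was higher in PWK/PhJ (log2 difference 0.54, edgeR adjusted p = 0.024) and 0 were lower. The part of these markers in the Th result was not tested. Dbh, which turns dopamine into noradrenaline, had 0.609 ± 0.148 CPM in PWK/PhJ and 0.442 to 0.879 CPM in the means of the other strains. In bulk tissue, fewer cells of a type and less RNA per cell cannot be told apart.

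Among the other 7 strains Th lay at 3 to 46 counts per library, and no step between neighbours in the order of their means passed the test. Outside the 7 pairs with PWK/PhJ, 6 pairs were called, 3 with C57BL/6J and 3 with A/J as the higher strain. Without A/J female 3 no such pair had A/J as the higher strain, and C57BL/6J was higher than each of the other 6, by 0.72 over NZO/HlLtJ (log2, adjusted p = 0.0168) to 1.18 over WSB/EiJ (adjusted p = 0.000138). Against the mean of the others WSB/EiJ had -1.01 ± 0.257 (log2, SE; adjusted p = 0.0011). That mean includes PWK/PhJ, and the value ran from -1.23 to -0.89 as single libraries were left out. In WSB/EiJ, 4.95% of all genes were called with the same minimum.

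Ddc, which completes dopamine and serotonin synthesis, was low in PWK/PhJ. Its 8 libraries there had 2.91, a median of 3.62 and a highest value of 5.89 CPM, and Ddc was lower than in the other strains by a log2 difference of -0.31 ± 0.11 (SE; adjusted p = 0.0121). The highest strain mean was 6.78 ± 2.51 CPM in NOD/ShiLtJ, followed by 6.1 ± 0.8 CPM in C57BL/6J, and the lowest was 3.61 ± 0.4 CPM in WSB/EiJ (SD, n = 8 each). NOD/ShiLtJ held 1 library at 12.8 CPM, female 1, and the other 7 ran from 5.29 to 7.18 CPM. Ddc was higher in NOD/ShiLtJ than in the others by 0.51 ± 0.0988 (log2, SE; adjusted p = 3.39e-05), and by 0.33 without that library (adjusted p = 0.00458). WSB/EiJ was lower by -0.51 ± 0.111 (adjusted p = 0.000148). No neighbours in the order of the 8 means differed beyond their spread.

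The ratio of Th to Ddc per kilobase set PWK/PhJ apart from all others. Its lowest, median and highest values were 0.951, 1.82 and 2.14 in PWK/PhJ, and the medians of the other strains ran from 0.0971 to 0.23. The highest ratio outside PWK/PhJ was 0.523, in A/J, so the groups did not overlap.

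**Figure D1:**
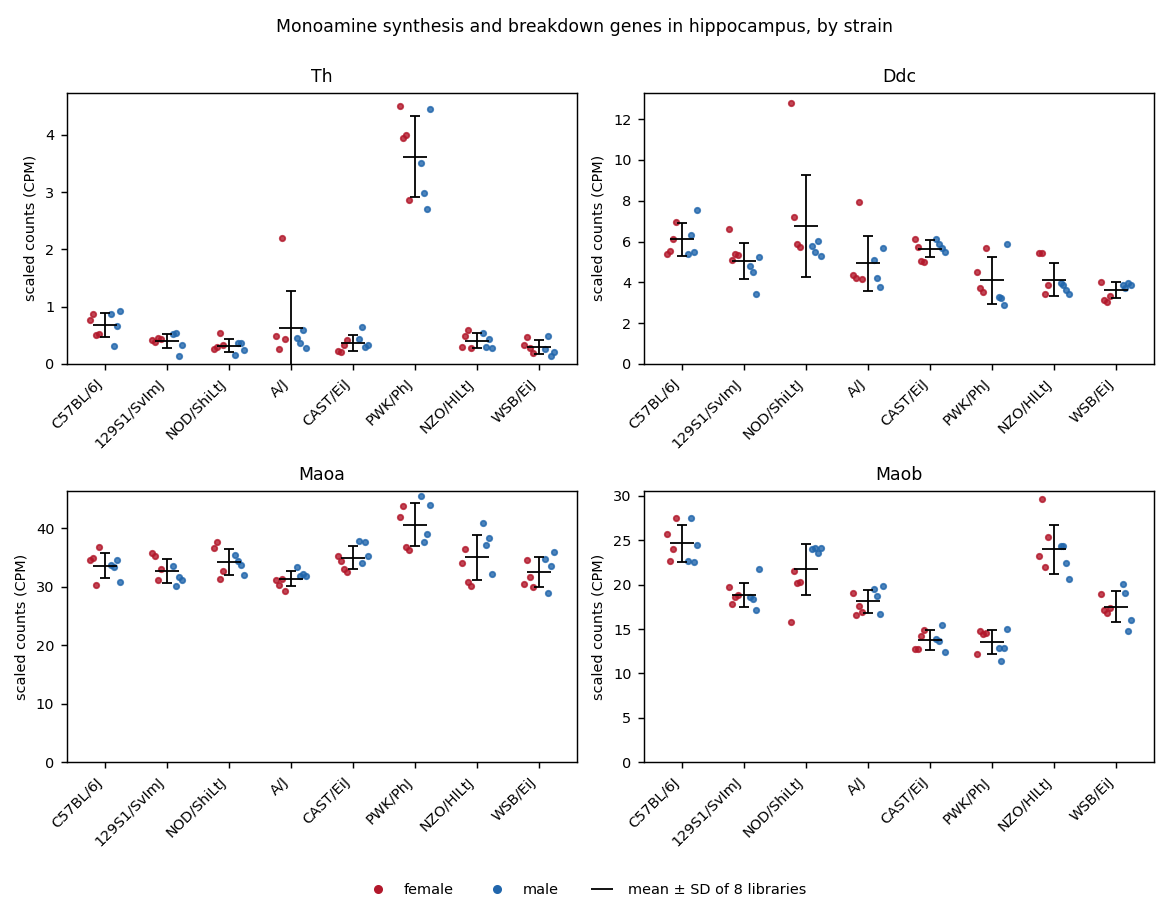
Levels (CPM, axes from 0) of Th, Ddc, Maoa and Maob in each library, by strain, with females in red, males in blue and bars for the mean ± SD of 8 libraries. Th sits at 2.71 to 4.51 CPM in PWK/PhJ and at or under 2.2 CPM elsewhere, while Maob is lowest in CAST/EiJ and PWK/PhJ.

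Drd5, the D1-like receptor also called D5, fell into tiers of strains. C57BL/6J had 17.8 ± 0.729 CPM, 129S1/SvImJ 17.8 ± 1.35 CPM and NOD/ShiLtJ 17.5 ± 2.5 CPM (SD, n = 8 each). A/J followed with 11.1 ± 0.964 CPM and NZO/HlLtJ with 10.8 ± 1.07 CPM, then WSB/EiJ with 9.12 ± 1.11 CPM and CAST/EiJ with 8.72 ± 1.08 CPM. PWK/PhJ was last with 4.86 ± 0.462 CPM.

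The lowest, median and highest Drd5 values in the 8 PWK/PhJ libraries were 4.03, 4.99 and 5.41 CPM, and all 56 other libraries were higher, from 7.42 to 21.6 CPM. Each library of the upper tier (14.5 to 21.6 CPM) also exceeded each library of A/J (9.79 to 12.7 CPM). The steps from NOD/ShiLtJ to A/J (adjusted p = 7.42e-13), from NZO/HlLtJ to WSB/EiJ (adjusted p = 0.00119) and from CAST/EiJ to PWK/PhJ (adjusted p = 1.04e-15) passed edgeR's test, and no step within a tier did. Of the 28 pairs of strains, 23 differed for Drd5. Over all genes 40.8% of such comparisons were called, with 22.3% to 54.7% in single pairs.

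Against the mean of the others, Drd5 was lower in PWK/PhJ by -1.38 ± 0.0561 (log2, SE; 0.385-fold; adjusted p = 4.44e-29). It was also lower in CAST/EiJ (-0.42 ± 0.05, adjusted p = 1.93e-10) and WSB/EiJ (-0.35 ± 0.0498, adjusted p = 4.33e-08), so all 3 wild-derived strains lay below the mean. The classical strains A/J (-0.03, edgeR adjusted p = 0.732) and NZO/HlLtJ (-0.06, adjusted p = 0.331) lay slightly below it and were not called. Drd5 was higher in C57BL/6J and 129S1/SvImJ (0.76 each) and in NOD/ShiLtJ (0.72). Strain held 95.1% of the variance of Drd5 (log2 CPM over 64 libraries), the largest share of the 7 genes. An antisense gene, Gm26560, overlaps Drd5. The use of strand and the treatment of strain-specific sequence in the authors' counting are not given in the sources used here. Gm26560 was low and followed a like order, with 1.55 ± 0.592 CPM in C57BL/6J and 0.172 ± 0.127 CPM in PWK/PhJ.

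Drd1, the receptor typical of direct-pathway striatal neurons, stood out in 129S1/SvImJ. There its lowest, median and highest values were 6.46, 7.78 and 8.85 CPM, and only 4 of the 56 other libraries exceeded 6.46 CPM. The 129S1/SvImJ mean was 7.71 ± 0.969 CPM, and the others ran from 4.19 ± 0.964 CPM in CAST/EiJ to 5.69 ± 1.39 CPM in WSB/EiJ (SD, n = 8 each). The difference from the mean of the others was 0.63 ± 0.0804 (log2, SE; adjusted p = 3.98e-09) in 129S1/SvImJ and -0.38 ± 0.0896 (adjusted p = 0.000251) in CAST/EiJ. In the order of strain means only the first step, from 129S1/SvImJ to WSB/EiJ, passed (adjusted p = 0.00138). The D1-like receptors did not share an order: 129S1/SvImJ was in the upper tier of both, but PWK/PhJ, last for Drd5, had 5.15 ± 0.799 CPM of Drd1 (log2 difference -0.04 ± 0.0872, adjusted p = 0.717).

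Drd2, a receptor of D2-type striatal neurons, of hilar mossy cells and of dopamine neurons themselves, varied more within strains than the D1-like receptors. Strain held 39.9% of its variance. Values were highest in A/J, where the lowest, median and highest were 3.31, 5.56 and 8.04 CPM, with a mean of 5.65 ± 1.75 CPM (SD, n = 8). The lowest mean was 2.83 ± 0.898 CPM in C57BL/6J. All strains overlapped, and no neighbours in the order of means differed beyond their spread. A/J was higher than the mean of the others by 0.68 ± 0.14 (log2, SE; adjusted p = 8.75e-05). The calls in C57BL/6J (-0.45, adjusted p = 0.0207), CAST/EiJ (0.34, adjusted p = 0.0379) and WSB/EiJ (-0.38, adjusted p = 0.0438) were lost when single libraries were left out. Largest adjusted p-values were then 0.0851 without C57BL/6J male 3, 0.108 without CAST/EiJ male 2 and 0.121 without WSB/EiJ female 2.

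Drd3 and Drd4, the other D2-like receptors, were at the limit of detection. Drd3 had 0 counts in 29 of 64 libraries and at most 8, and 55 libraries were at or under 3 counts, a floor of 0.111 to 0.18 CPM depending on the library. Summed over 8 libraries, Drd3 had 25 counts in CAST/EiJ, 25 in NZO/HlLtJ, 17 in A/J, 8 in NOD/ShiLtJ, 6 in 129S1/SvImJ, 6 in PWK/PhJ, 4 in C57BL/6J and 1 in WSB/EiJ. Drd4 had 0 counts in 5 libraries and at most 8, and 43 libraries were at or under 3 counts. Its sums were 40 in NOD/ShiLtJ, 33 in WSB/EiJ, 26 in CAST/EiJ, 22 in 129S1/SvImJ, 21 in C57BL/6J, 20 in A/J, 17 in NZO/HlLtJ and 5 in PWK/PhJ. At this depth most single libraries do not separate either gene from 0, so no fold is given. Without the count filter both passed the F test (adjusted p = 4.44e-05 for Drd3 and 0.000381 for Drd4).

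**Figure D2:**
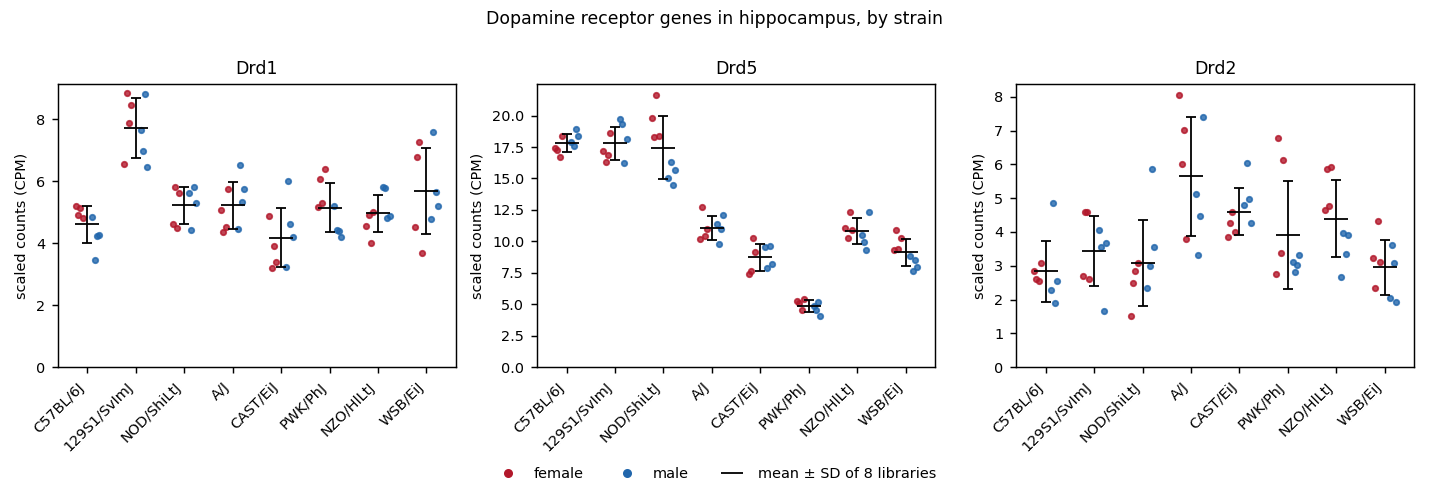
Levels (CPM, axes from 0) of Drd1, Drd5 and Drd2 in each library, by strain, with females in red, males in blue and bars for the mean ± SD of 8 libraries. Drd5 shows separate tiers with PWK/PhJ lowest at 4.03 to 5.41 CPM, Drd1 is highest in 129S1/SvImJ, and Drd2 overlaps between all strains.

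The makeup of the receptor transcripts differed with strain. Drd5 made up a median of 69.1% of the summed receptor levels per kilobase in C57BL/6J and 35.5% in PWK/PhJ, where the lowest and highest libraries had 26.7% and 40.6%. In PWK/PhJ the median shares of Drd1 (31.7%) and Drd2 (30.3%) were near that of Drd5. The sum of the 5 receptors had a median of 9.35 CPM per kb in 129S1/SvImJ, the highest, and 4.21 CPM per kb in PWK/PhJ, the lowest.

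Of the breakdown enzymes, Maoa was the steadier. Its PWK/PhJ libraries had a lowest value of 36.2, a median of 40.5 and a highest value of 45.5 CPM, and 9 of the 56 other libraries exceeded the lowest of them. The PWK/PhJ mean was 40.6 ± 3.63 CPM, and the others ran from 31.4 ± 1.25 CPM in A/J to 35 ± 3.84 CPM in NZO/HlLtJ (SD, n = 8 each). PWK/PhJ was higher than the mean of the others by 0.28 ± 0.0378 (log2, SE; 1.21-fold; adjusted p = 5.63e-09), and A/J lower by -0.14 ± 0.0392 (adjusted p = 0.00272). All 7 pairs with PWK/PhJ differed, and 2 of the other 21 did.

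Maob, whose gene lies next to Maoa on the X chromosome, had another order. C57BL/6J had 24.6 ± 2.06 CPM, NZO/HlLtJ 24 ± 2.72 CPM and NOD/ShiLtJ 21.7 ± 2.92 CPM, and the lowest means were 13.8 ± 1.12 CPM in CAST/EiJ and 13.5 ± 1.34 CPM in PWK/PhJ (SD, n = 8 each). The lowest, median and highest values were 11.4, 13.7 and 15 CPM in PWK/PhJ and 22.5, 24.2 and 27.5 CPM in C57BL/6J, with no overlap between those strains. Maob was lower than the mean of the others in PWK/PhJ (-0.52 ± 0.0531, log2, SE; adjusted p = 1.13e-12) and in CAST/EiJ (-0.49 ± 0.0524, adjusted p = 5.01e-12). It was higher in C57BL/6J (0.46 ± 0.0476, adjusted p = 5.45e-12) and NZO/HlLtJ (0.42 ± 0.0477, adjusted p = 1.44e-10). Of the 28 pairs, 22 differed, and strain held 84.2% of the variance.

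PWK/PhJ thus had the highest Maoa and the lowest Maob mean. The ratio of Maob to Maoa per kilobase had medians of 1.12 in C57BL/6J, 0.999 in NZO/HlLtJ, 0.987 in NOD/ShiLtJ, 0.576 in CAST/EiJ and 0.499 in PWK/PhJ. The highest ratios in CAST/EiJ (0.686) and PWK/PhJ (0.602) lay below the lowest in C57BL/6J (0.971) and NZO/HlLtJ (0.871).

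**Figure D3:**
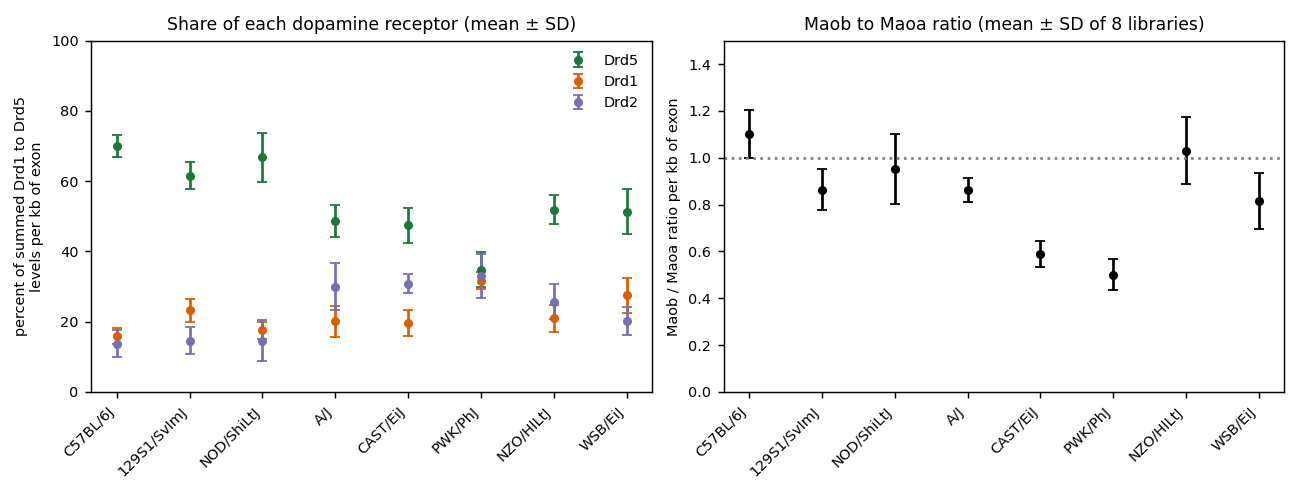
Left, share of Drd5, Drd1 and Drd2 in the summed levels per kilobase of the 5 receptors (percent), and right, the ratio of Maob to Maoa per kilobase, as mean ± SD of 8 libraries in each strain. The mean Drd5 share falls from 70% in C57BL/6J to 34.8% in PWK/PhJ, and the mean Maob to Maoa ratio from 1.1 to 0.501.

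Read by strain, 29 of the 56 comparisons of a gene in a strain with the mean of the others were called at any fold, against 42.3% over all genes and strains. With the minimum of 1 on the log2 scale 3 were called (Th in PWK/PhJ and WSB/EiJ, Drd5 in PWK/PhJ), against 5.27%. At any fold, 5 of the 7 genes were called in C57BL/6J (38% of all genes), 2 in 129S1/SvImJ (32.3%), 4 in NOD/ShiLtJ (39.6%) and 2 in A/J (33.9%). In the others the counts were 5 in CAST/EiJ (56.8%), 5 in PWK/PhJ (57.7%), 2 in NZO/HlLtJ (38%) and 4 in WSB/EiJ (42.3%). Nothing particular to these 7 genes is read from the counts. Of the 29, 24 were called whichever single library was left out. The other 5 were the Drd2 calls named above, Drd1 in C57BL/6J (-0.22, and -0.18 with adjusted p = 0.128 without C57BL/6J male 2) and Ddc in NZO/HlLtJ (-0.29, and -0.24 with adjusted p = 0.096 without NZO/HlLtJ female 3).

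**Figure D4:**
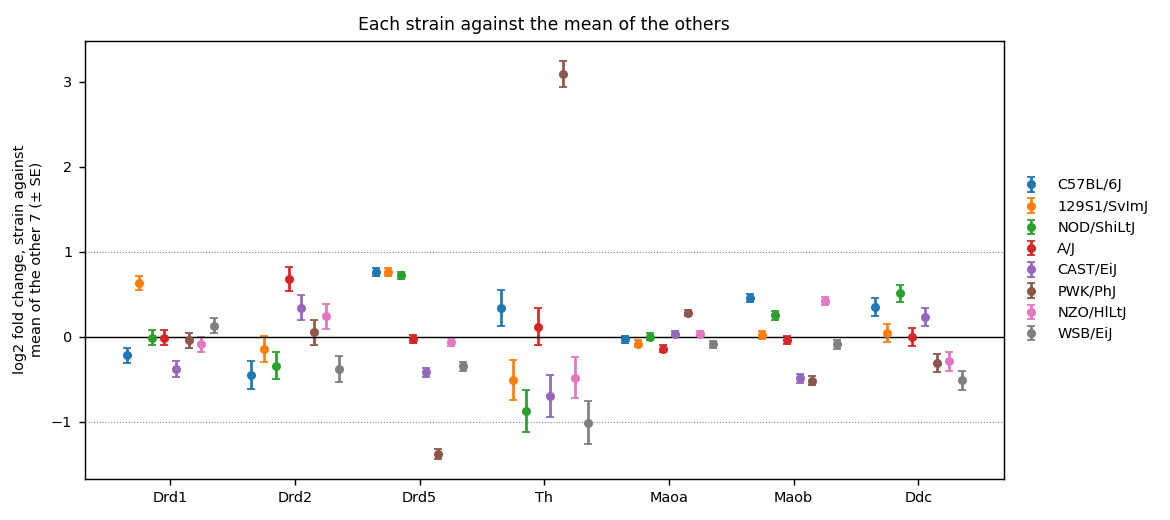
Log2 fold change of a strain relative to the remaining 7, for the 7 filtered genes, with bars for the SE and dotted lines at 1 and -1. Th in PWK/PhJ (3.09) and Drd5 in PWK/PhJ (-1.38) lie farthest from 0, and Maoa lies within 0.28 of 0 in every strain.

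No gene of the 7 differed between females and males over all strains (edgeR, adjusted p from 0.753 for Drd5 to 1), and none had a strain by sex interaction (adjusted p from 0.362 for Drd5 to 0.721 for Th). Over all genes 0.167% were called for sex and 0.046% for the interaction. Within the members, unadjusted p-values for sex were 0.0151 for Drd5 and 0.0476 for Ddc, and above 0.1 for the others. For the interaction they were 0.00512 for Drd5, 0.0478 for Drd2, 0.053 for Maob and above 0.1 for the others. Unadjusted p-values under 0.05 were given by 5.3% of all genes for sex and 10.7% for the interaction. Within NOD/ShiLtJ, Drd5 was higher in females (19.5 ± 1.55 CPM, 18.3 to 21.6) than in males (15.4 ± 0.822 CPM, 14.5 to 16.3; SD, n = 4 each), with a log2 difference of 0.35 ± 0.0853 (SE; edgeR adjusted p = 0.0343). In that comparison 0.708% of all genes were called. The call was lost in 5 of the 8 fits that each left out a NOD/ShiLtJ library, with adjusted p up to 0.263 without female 1. Strain means of the sexes ran together for most of the genes: Pearson's r between the female and male strain means (8 strains, log2) was 0.97 for Drd5, 0.94 for Th, 0.92 for Maob, 0.78 for Ddc, 0.73 for Drd1 and Maoa, and 0.5 for Drd2.

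The rest of the pathway was read from lists of genes, chosen by function. Of all genes tested, 89.2% passed the F test and 27.6% also had a range of at least 1, so nothing particular is read from the counts of the lists. Among genes of catecholamine synthesis and its cofactor, 6 of 7 tested passed the F test and 2 had a range of at least 1, with a median range of 0.85. These were Gch1, the first enzyme of tetrahydrobiopterin synthesis (range 1.36, lowest in PWK/PhJ), and its regulator Gchfr (1.52). In PWK/PhJ, Gch1 was lower by -0.72 ± 0.175 (log2, SE; adjusted p = 0.00039), the opposite direction to Th, which uses that cofactor. Spr, the last enzyme of the cofactor's synthesis (0.15, adjusted p = 0.014), and Pcbd1, of its recycling (0.3, adjusted p = 0.00291), were higher there. Spr was the tested gene of this list that did not pass the F test over strains (range 0.21, adjusted p = 0.111). All 3 genes of serotonin and histamine synthesis passed, with Tph1, the peripheral and pineal isoform, at a range of 2.87. Tph1 was low, and 1 WSB/EiJ library reached 5.01 CPM beside a median of 0.266 CPM in that strain. Tph2, the neuronal isoform, was highest in PWK/PhJ (log2 difference 0.58 ± 0.105, adjusted p = 4.01e-06).

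Of 7 monoamine transporters only 3 passed the count filter, since the plasma membrane carriers for dopamine (Slc6a3), noradrenaline (Slc6a2) and serotonin (Slc6a4) and the vesicular carrier Slc18a1 were too low. All 3 passed the F test, as did 89.2% of all genes. Slc18a2, which loads monoamines into vesicles, had 10.1 ± 0.711 CPM in PWK/PhJ, where all libraries had at least 9.2 CPM, and no library of another strain exceeded 8.38 CPM. Its log2 difference was 0.73 ± 0.076 (SE; adjusted p = 3.32e-12). Slc22a3, an extraneuronal carrier, was also higher in PWK/PhJ (1.05 ± 0.146, adjusted p = 1.37e-08), with NZO/HlLtJ at a like level (1.39 ± 0.389 and 1.4 ± 0.315 CPM).

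Of 11 further breakdown genes, 8 passed and 2 (Sult1a1 and Aldh1a1) had a range of at least 1, with a median range of 0.66. Over all genes 89.2% passed and 27.6% also had such a range. In PWK/PhJ, Aldh2, which oxidises the aldehydes that the oxidases form, was lower (-0.52 ± 0.0505, adjusted p = 2.2e-13). Hnmt, which methylates histamine (0.73 ± 0.0398, adjusted p = 2.39e-23), and Aldh3a2 (0.24 ± 0.0268, adjusted p = 2.93e-11) were higher. Of 33 genes that act downstream of the receptors, 32 passed, but their median range was 0.3, below the 0.55 of all genes, and only Rgs9, a regulator of striatal G protein signalling, reached 1 (1.35). In PWK/PhJ 9 of the 33 were higher and 14 lower, where 57.7% of all genes were called in either direction. Ppp1r1b, the DARPP-32 gene, was lower there by -0.6 ± 0.0975 (adjusted p = 6.55e-07), and Kcnj6, a potassium channel opened through inhibitory receptors, was higher by 0.63 ± 0.114 (adjusted p = 4.13e-06). Of the related channel genes in the list, Kcnj9 was lower (-0.21 ± 0.066, adjusted p = 0.0056) and Kcnj3 was not called (0.03, adjusted p = 0.545).

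Genes next to the members on the chromosome gave a mixed picture. Beside Drd5, Slc2a9, a urate transporter, was also lowest in PWK/PhJ (0.542 ± 0.182 CPM, followed by 1.11 ± 0.28 CPM in CAST/EiJ and 2.65 to 3.47 CPM in the other strain means), with a log2 difference of -2.3 in PWK/PhJ (adjusted p = 8.63e-20). On the other side Tmem128 was higher there (0.18, adjusted p = 0.00199). Beside Drd2, Ttc12 was highest in A/J, as Drd2 was, with 6.41 ± 0.757 CPM against 2.12 to 3.78 CPM in the other means. On the other side Tmprss5 was highest in C57BL/6J, the strain with the lowest Drd2 mean (range 0.69, F test adjusted p = 0.0107). Beside Th, Cd81 was lower in PWK/PhJ by -0.18 (adjusted p = 0.00272), and Ins2 had at most 3 counts in each PWK/PhJ library, so no fold is given. These comparisons share libraries with those of the members.

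The genes whose levels followed a member most closely over the 64 libraries (Pearson's r of log2 CPM) were Coq2 (0.89), Stom (0.88) and Fbxo7 (0.87) for Drd5, and Tbx5 (0.88), Sh2d1b2 (0.86) and Muc20 (0.86) for Th. For Maob they were Frmd8 (0.86), Myoc (0.85) and Spata6 (0.84). The closest for the others were Zfp521 for Drd2 (0.8), Phf14 for Maoa (0.75), Gdpd3 for Drd1 (0.68) and Gsn for Ddc (0.67). These values mostly carry strain, and strain and library are shared by all of them.

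Within groups, after the 16 means of strain and sex were subtracted, Drd2 followed the mean of the striatal markers (r = 0.7 over 64 libraries) and ran against the CA1 markers (r = -0.51). Its closest single genes were then Slc32a1, the vesicular carrier of inhibitory neurons (0.84), Peg10 (0.81) and Magel2 (0.78). Summed striatal markers ran from 156 to 261 CPM and were highest in PWK/PhJ and CAST/EiJ, with medians of 235 and 227 CPM against 172 to 188 CPM in the others. The list was split in PWK/PhJ, where 3 of its 11 tested genes were higher, led by Penk (log2 difference 1.67), and 3 were lower: Ppp1r1b (-0.6), Rgs9 (-0.73) and Gpr6 (-0.71). A/J, the strain with the most Drd2, had the lowest median of this sum, in which abundant genes weigh most. The correlation and the covariate use the mean log2 level of the list instead, in which each gene counts alike. Among the list's genes A/J was the lowest strain for Penk and the highest for Gpr6 and Isl1. With the striatal marker level as a covariate the Drd2 calls in CAST/EiJ (log2 0, adjusted p = 0.991) and WSB/EiJ (-0.22, adjusted p = 0.12) were lost, while those in A/J and C57BL/6J remained.

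Maob followed the choroid plexus markers within groups (r = 0.66), as well as striatal (0.49) and oligodendrocyte markers (0.44). In C57BL/6J male 2 had 27.5 CPM of Maob with 5240 CPM of summed choroid plexus markers, and male 3 had the least Maob (22.5 CPM) with 191 CPM. Female 4 had as much Maob as male 2 (27.5 CPM), but its mean choroid plexus marker level lay below that of its group, by -0.82 on the log2 scale. NOD/ShiLtJ also differed, since its library with the least Maob, female 1 (15.8 CPM), had 2890 CPM. With the choroid plexus level as a covariate Maob kept its call in each of the 5 strains where it had one. Oligodendrocyte markers were not used as a covariate. Their summed level had its lowest medians in CAST/EiJ (3170 CPM) and PWK/PhJ (3210 CPM), the strains with the least Maob. NZO/HlLtJ, among the strains with the most Maob, had 3500 CPM, and the highest median was 5110 CPM in NOD/ShiLtJ. All 6 genes of that list were lower in PWK/PhJ. The part of these markers in the Maob result was not tested. Drd5 followed the dentate granule markers (r = 0.62), Th the hypothalamic markers (0.45), Maoa the endothelial and mural markers (0.34), and Ddc ran against the dentate granule markers (-0.34). The value for Th includes A/J female 3, with 2.2 CPM of Th and 59.3 CPM of summed hypothalamic markers. How far that library carries the correlation was not tested. Of the 7 dentate granule markers, Tdo2 (log2 difference -2.95), Dsp (-1.59) and C1ql2 (-0.34) were lower in PWK/PhJ and Plk5 (0.31) was higher. The summed level of the list, in which abundant genes weigh most, had a median of 337 CPM both there and in CAST/EiJ. The correlation uses the mean log2 level of the list instead. The part of these markers in the Drd5 result was not tested.

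**Figure D5:**
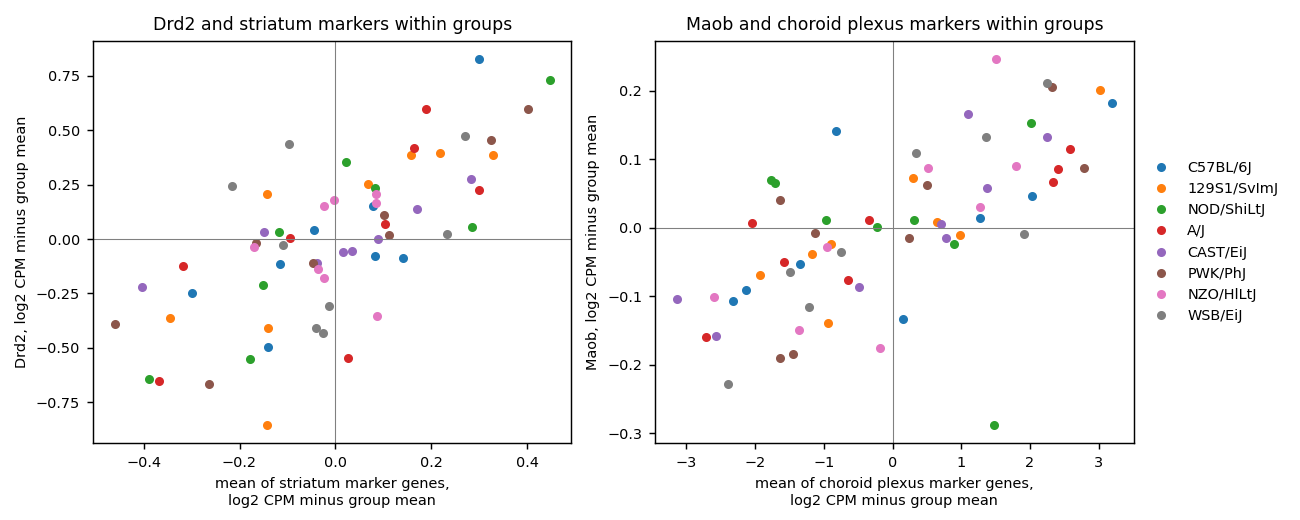
Deviation of each library from the mean of its group (log2 CPM), for Drd2 against the mean of the striatal markers (left) and Maob against the mean of the choroid plexus markers (right), coloured by strain. Both rise together within groups (r = 0.7 and 0.66 over 64 libraries). A NOD/ShiLtJ library at high choroid plexus level has the Maob value farthest below its group mean.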

How the data were processed

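The values start from unnormalized whole-number counts, which the authors deposited as 1 matrix of genes by 64 samples made on genome build GRCm39 per the submitters' processing notes. The aligner, the counting tool, the use of strand and the treatment of strain-specific sequence are not given in the sources used here. Per the labels' protocols, RNA was purified with TRIzol Plus and libraries were made with a TruSeq kit. Columns were matched to samples by name (50 equalled a part of the title, 14 had a digit fewer), and 0 sample columns were left unused. Replicates were numbered 1 to 4 in deposition order. Symbols, chromosomes, neighbours and exon lengths came from GENCODE M21 (GRCm38), which matched 99.7% of identifiers.

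Genes were filtered with filterByExpr (minimum count 10, minimum total 15), which kept 17382 (53.9%). A model with 1 mean for each of the 16 groups (48 residual degrees of freedom) was fitted to all 64 libraries. It used edgeR 4.0.16 in R 4.3.3, with TMM factors and quasi-likelihood tests. The fit was also run on simulated counts with changed genes in PWK/PhJ alone and the same spread for all genes. Those settings are simpler than these data, so no error rate is taken from that run. Strain means are the mean of both sexes. The threshold was an adjusted p of 0.05, with a log2 minimum of 1 where stated. SE is the log2 difference divided by the root of F. Median CPM and counts are per library. The members and lists were chosen with earlier results of these data known. Named genes were all members and up to 4 genes per list with the largest range among those called with the minimum. Also named were the nearest tested gene on each side of Drd2, Drd5 and Th, and up to 3 closest patterns by correlation. The neighbours of the other members were looked up in the same way and are not described. Dbh, Tph2, Slc18a2, Nr4a2, Aldh2, Hnmt, Aldh3a2, Ppp1r1b, Kcnj3, Kcnj6, Kcnj9, Pcbd1 and Spr were chosen after their values were seen. So were the marker genes named for PWK/PhJ and A/J. Alternatives used DESeq2 1.42.0, other filters, marker covariates and left-out libraries. Numbers in the titles are 639 to 643 for females of CAST/EiJ and 311 to 462 otherwise. In every strain, females and males have separate runs of numbers, so sex and number block cannot be told apart in any of them. Replicate libraries differed by more than sampling noise (chi-square per degree of freedom from 2.97 to 61.8).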

Additional observations from a re-analysis of the deposited data

Results flagged for a closer look

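In 3 of 112 groups of 4 libraries, 1 library lay far from the other 3 by Dixon's criterion, where chance flags about 1 in 20 groups (5.6). Th in A/J female 3 was 2.2 CPM, against 0.261 to 0.486 CPM in the other 3. Ddc in the same library was 7.94 CPM, against 4.17 to 4.38 CPM. Beside these values, that library had the highest Avp (24.9 CPM), Oxt (29.8 CPM) and Nkx2-1 (3.01 CPM) levels of all 64, while Hcrt was at 0, Agrp at 0.0478 CPM and Pomc at 0.717 CPM, below its median of 0.902 CPM in the other libraries. Their part in the Th and Ddc values was not tested. Ddc in PWK/PhJ male 4 was 5.89 CPM, against 2.91 to 3.28 CPM in the other 3, and its Avp (0.12 CPM) and Oxt (0.0601 CPM) levels stood beside medians of 0.225 and 0.0515 CPM in the other libraries.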

How the results depend on the processing

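The F test with a range of at least 1 called 2 genes. It called 4 with no count filter (Drd3 and Drd4 added), 1 with a mean of at least 50 counts, where Th was not tested, 5 in females only (Drd1, Drd2 and Ddc added), 7 with no fold minimum and 2 to 3 as single libraries were left out. The comparisons of a strain with the others gave 3 calls, 8 with no count filter, 1 with a mean of at least 50 counts, 29 with no fold minimum and 2 to 3 with single libraries left out. Sex and interaction gave 0 calls among the members in every setting run with both sexes, DESeq2 and 64 left-out libraries included (0 to 0). Pairs of strains gave 102 calls of 196, and 101 to 104 in 3 settings chosen after the data were seen. Of the 29 contrasts, 16 kept their call in each of 11 other settings that gave a value, and 0 changed sign. The A/J result for Drd2, the 129S1/SvImJ result for Drd1, the NOD/ShiLtJ result for Ddc and the PWK/PhJ results for Drd5, Th, Maoa and Maob all kept their call there. Calls lost in a single sex have fewer libraries behind them.

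Depth limits Drd3 and Drd4, at 0 to 8 counts, and Th outside PWK/PhJ. Strain, and sex within each strain, follow the order of title numbers. Strain and sex differences and whatever that order reflects therefore cannot be told apart. No paired analysis was possible because the replicate numbers were given in deposition order only and pair no libraries.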
